A study of Mus musculus with 20 samples.

Results

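The distal segment of mouse chromosome 17, from 70 Mb to the end of the chromosome (mm10), was described in 10 lists of accessible sites from embryonic stem cells, each list from cells with another CTCF transgene. Its members were chosen by position alone, but the segment itself was chosen on peak counts of these same lists, in which WT and H455R had stood low. The counts and ranks that follow are therefore a description, with no test. Peaks of the 10 lists that shared at least 1 bp were merged, which gave 2173 regions in the segment, 0.977% of the 222457 regions of the genome. The part of chromosome 17 before 70 Mb, with 7091 regions, served as the contrast.

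All cells were E14Tg2a mouse embryonic stem cells of strain 129/Ola or clones derived from them, whose own CTCF carries an auxin-inducible degron. All 10 genotypes received 500 µM indole-3-acetic acid, an auxin that triggers loss of the degron-tagged endogenous protein, for 2 days. Together with it they received 1 µg/ml doxycycline, which switches on the transgene. The transgene was wild type (WT) or carried 1 of 9 substitutions, R339Q, R342C, S354F, K365T, R377C, R377H, Q418R, R448Q or H455R, and each genotype is a cell line of its own; the labels do not say whether a line is 1 clone. Accessible DNA was mapped with Omni-ATAC-seq, in which a transposase cuts and tags open chromatin, in 2 replicates per genotype that the authors joined into 1 peak list. No value here has a replicate error. The 95% intervals of shares, and of ratios drawn from them, are exact (Clopper-Pearson) and cover counting error over peaks or regions only. Those of median ranks come from the ordered values of the regions and cover spread over regions only. The lists ranged from 121032 peaks in R339Q to 171719 in WT, and read totals were not used here.

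CTCF uses its zinc fingers to bind many sites between and inside genes, where it halts cohesin and so anchors chromatin loops. Accessible sites in stem cells are mainly promoters, enhancers and sites of such binding proteins. The number of peaks that a caller finds, and the fold enrichment it gives them, rise both with how open a site is and with how much of its DNA is in the library, and peak lists alone do not tell these apart. The 116 protein-coding genes of the segment include Msh6, which encodes a DNA mismatch repair protein, Epcam, the gene of an adhesion molecule of epithelial and stem cells, and Smchd1, which encodes a chromatin protein of X inactivation. Of the 2173 regions, 160 lay within 1 kb of an annotated end of a protein-coding gene (gene-end regions), 1123 elsewhere inside such a gene and 890 between genes. The median region was 439 bp wide, 692 regions (31.8%) were held by all 10 lists and 381 (17.5%) by a single list.

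Promoter sequences are shown as examples for some accessible regions named below, although most of the sites that differed lay away from promoters. None of them lies in a region that both WT and H455R lacked. Each is the 250 bases upstream of an annotated gene start, 5′ to 3′ on the gene's strand, from RefSeq on GRCm38.p6 (mm10). Bases inside the merged accessible region are in capitals. The Rasgrp3 and Myom1 stretches lie inside their genes, which begin at 75435870 and 71003332, so they precede internal starts. Rasgrp3 (chr17:75465288-75465537, plus strand) and Abcg8 (chr17:84676052-84676301, plus strand) lie in regions that only the WT list lacked. Myom1 (chr17:71019307-71019556, plus strand) lies in a region that only WT and H455R held, and Morn2 (chr17:80289962-80290211, plus strand) in the strongest promoter region beyond 76 Mb that all 10 lists held.
Rasgrp3: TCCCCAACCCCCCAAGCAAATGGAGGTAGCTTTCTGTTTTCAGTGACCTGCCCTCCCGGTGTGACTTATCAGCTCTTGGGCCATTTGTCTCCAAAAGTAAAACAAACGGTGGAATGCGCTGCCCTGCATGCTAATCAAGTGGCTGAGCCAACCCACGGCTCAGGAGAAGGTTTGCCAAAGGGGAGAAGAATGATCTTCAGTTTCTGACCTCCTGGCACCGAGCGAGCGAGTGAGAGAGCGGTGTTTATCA
Abcg8: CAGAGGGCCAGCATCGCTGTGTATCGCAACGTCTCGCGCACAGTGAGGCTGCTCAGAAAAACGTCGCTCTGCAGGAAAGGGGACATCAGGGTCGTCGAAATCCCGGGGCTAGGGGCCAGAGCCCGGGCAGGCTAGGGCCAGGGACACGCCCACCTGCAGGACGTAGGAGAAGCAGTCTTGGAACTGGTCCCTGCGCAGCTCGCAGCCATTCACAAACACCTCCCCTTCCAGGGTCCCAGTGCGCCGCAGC
Myom1: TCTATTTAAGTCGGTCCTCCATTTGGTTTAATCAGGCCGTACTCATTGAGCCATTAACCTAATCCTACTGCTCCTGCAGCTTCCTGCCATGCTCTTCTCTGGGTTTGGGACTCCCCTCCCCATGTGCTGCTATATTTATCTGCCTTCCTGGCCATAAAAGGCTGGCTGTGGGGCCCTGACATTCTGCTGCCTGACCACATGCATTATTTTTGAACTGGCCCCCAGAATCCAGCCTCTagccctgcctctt
Morn2: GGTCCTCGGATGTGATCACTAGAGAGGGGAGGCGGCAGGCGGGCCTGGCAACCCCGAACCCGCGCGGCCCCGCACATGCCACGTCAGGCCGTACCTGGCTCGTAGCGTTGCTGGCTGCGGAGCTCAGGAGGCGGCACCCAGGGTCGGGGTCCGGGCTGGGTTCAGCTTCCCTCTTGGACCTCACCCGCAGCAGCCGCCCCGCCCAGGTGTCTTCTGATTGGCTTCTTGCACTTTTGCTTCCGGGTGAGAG

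The capitals run over the whole stretch in Rasgrp3, Abcg8 and Morn2 and over 237 of the 250 bases in Myom1. A shortened core of the CTCF motif, CCNNNAGNNGGC searched on both strands, matched none of the 4 stretches. It was present in 7.17% of the 32851 such stretches of the genome's promoter table and in 8.65% of the 266 in the segment.

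WT and H455R had fewer peaks in the segment than any other list, although theirs were the 2 longest lists. The WT list held 1142 peaks there, 45.7 per Mb, and H455R 1110, 44.4 per Mb. The other 8 lists held 1238 (R339Q) to 1565 (R377C), with a median of 1452. In the contrast the order was the other way, with 5740 peaks in WT, 5180 in H455R and 4013 to 5007 in the other 8. The segment thus held 16.6% of the chromosome 17 peaks of WT (95% interval 15.7 to 17.5) and 17.6% of those of H455R (16.7 to 18.6). In the other 8 lists the share lay between 23.4% in Q418R and 24.3% in R377H, and the lowest bound of their intervals was 22.4%. The 2 low lists and the other 8 did not overlap. Peaks in the segment per peak in the contrast came to 0.199 in WT and 0.214 in H455R, which is 0.636 (0.597 to 0.678) and 0.685 (0.642 to 0.731) of the median of the other 8. Those 8 ranged from 0.979 to 1.03 of their own median. The lists hold no outside reference, so lower peak numbers in WT and H455R and higher ones in the other 8 cannot be told apart. Peak lists alone also do not tell how open a site is from how much of its DNA is in the library, and neither was tested. In 8 lists, H455R among them, the library codes in the peak names are consecutive, whereas in WT they are 28 numbers apart and in K365T 42. The labels do not say what a code marks, and its part in the result was not tested.

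**Figure D1:**
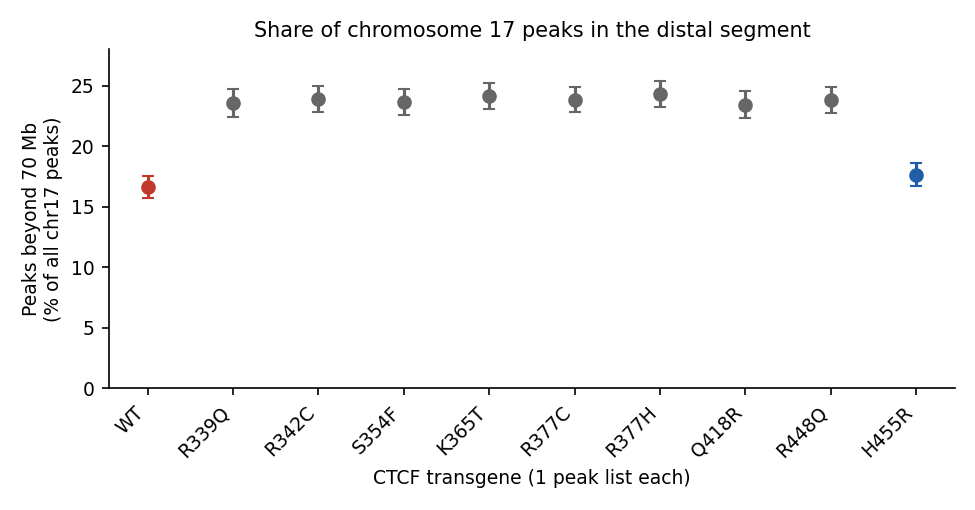
Share of each list's chromosome 17 peaks that lay beyond 70 Mb (vertical axis, percent), with exact 95% intervals over peaks as bars, 1 point per CTCF transgene. WT (red) and H455R (blue) lie at 16.6% and 17.6%, the other 8 lists (grey) between 23.4% and 24.3%.

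WT was low over a longer stretch of the segment than H455R. Each 1 Mb bin was scaled by the list's own contrast peaks and set against the median of the other 8 lists, using bins in which those 8 had a median of at least 20 peaks. Just outside the segment, from 69 to 70 Mb, WT held 49 peaks and H455R 41 against 33 to 54 in the other 8. Scaled by the contrast these were 1.00 and 0.927 of the median, and H455R lay just below the other 8 (0.936 to 1.37). Just inside it, from 70 to 71 Mb, WT held 102 and H455R 91 against 71 to 86, and scaled by the contrast these were 1.01 and 1.00 of the median. From 70 to 72 Mb neither list lay below all 8 in any bin. From 72 to 76 Mb WT held 136 peaks, 0.536 of the scaled median of the other 8, and lay below all 8 in 4 of 4 bins. H455R held 215 there, 0.939 of that median. In the bin from 74 to 75 Mb WT had 64 peaks where H455R had 108 and the other 8 had 75 to 99. The H455R list was at 0.778 of the median from 72 to 73 Mb, below all 8, and at 1.06 from 74 to 75 Mb. From 76 Mb onwards both were low, with 821 peaks in WT (0.601 of the median) and 727 in H455R (0.589), and each lay below all 8 in 12 of 12 bins, the earliest of which runs from 78 to 79 Mb. The bins of WT there ran from 0.469 to 0.696 and those of H455R from 0.392 to 0.715. Among the 51 contrast bins of the same depth, WT lay below all 8 in 2 and H455R in 5. The limits at 72 and 76 Mb were chosen after these bins were seen. From 76 to 78 Mb the other 8 lists had medians of only 6 and 4 peaks per bin, so the bins place the start of the H455R drop no more closely than between 76 and 78 Mb.

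**Figure D2:**
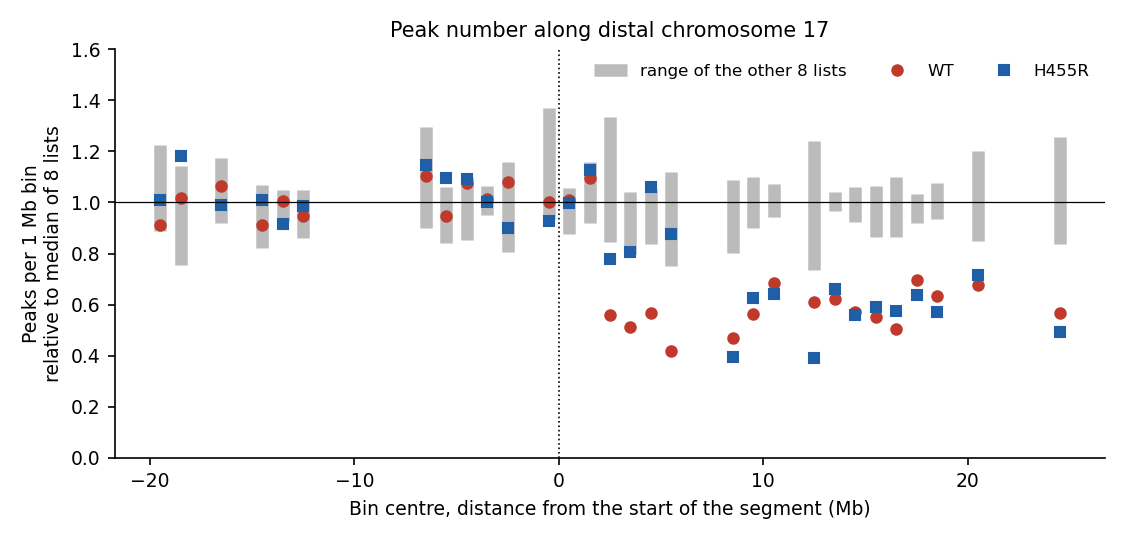
Peaks per 1 Mb bin, scaled by each list's peaks before 70 Mb and divided by the median of the 8 other lists (vertical axis, ratio), against the distance of the bin centre from the start of the segment (horizontal axis, Mb; dotted line at 0). Grey bars span the other 8 lists; bins with a median under 20 peaks are left out. WT (circles) lies below the grey bars in the bins from 2 Mb into the segment onwards, and H455R (squares) in those from 8 Mb onwards and in the bin that starts at 2 Mb. Before the segment H455R lies just below the grey bars from 56 to 57 Mb (0.915 against 0.925) and from 69 to 70 Mb (0.927 against 0.936).

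Sites called in every list also ranked lower within the segment in WT and H455R. The 81151 regions that all 10 lists hold were ranked within each list by fold enrichment, the authors' own value per peak, which makes the ranks comparable because the set is the same. Such a rank is given as a percentile, 100 being the strongest. The 692 shared regions of the segment had a median percentile of 39.8 in WT and 42.3 in H455R. In the other 8 lists it lay between 53.1 (R448Q) and 56.3 (Q418R). The 2763 shared contrast regions had medians of 46.0 in WT, 46.4 in H455R and 45.7 to 47.6 in the other 8, so the lists differed little there. Segment minus contrast came to -6.21 points in WT (95% interval of the segment median -10.7 to -3.09) and -4.02 in H455R (-7.81 to -1.42). In the other 8 lists the same difference was positive, from 6.78 points (R339Q) to 9.73 (Q418R). As a ratio within each list, the median fold of the segment over that of the contrast was 0.923 in WT, 0.949 in H455R and 1.09 to 1.14 in the other 8. These regions had to be called in WT and H455R to enter the set, so sites missing there are not part of these values.

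Peak width went the same way. At shared regions of the segment the median width was 507 bp in WT and 479.5 bp in H455R, against 544.5 to 611 bp in the other 8 lists. In the contrast it was 629 bp in WT, 591 bp in H455R and 536 to 618 bp in the other 8. Segment peaks were thus 122 bp narrower than contrast peaks in WT and 111.5 bp narrower in H455R, where the other 8 lists differed by -13.0 to 19.5 bp.

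Ranks were also compared region by region, over the parts chosen from the peak numbers. The percentile of each shared region was compared with its median over the other 8 lists, leaving the list itself out where it was 1 of those 8. In the 86 shared regions from 70 to 72 Mb the median difference was -1.48 points in WT and -0.780 in H455R, against -1.21 to 1.32 in the other 8. In the 92 regions from 72 to 76 Mb it was -13.8 points in WT, with 81 regions lower, and -0.212 in H455R, with 49 lower. In steps of 0.5 Mb, the 4 regions from 72 to 72.5 Mb differed by -9.04 points in WT and by -9.16 in R377H. The 13 regions from 72.5 to 73 Mb differed by -2.69 points in WT, with 92.3% lower, and by -3.55 in R448Q, with 84.6% lower. The 16 regions from 73 to 73.5 Mb differed by -15.3 in WT. With so few regions per step, the ranks do not place the start of the WT drop within 72 to 73 Mb. In the 514 regions from 76 Mb it was -7.72 points in WT, with 395 regions lower, and -8.82 in H455R, with 378 lower, while the other 8 lists lay between -1.01 and 0.831. In the contrast the values were -0.905 in WT, just outside the -0.616 to 0.774 of the other 8 lists, and 0.0416 in H455R.

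**Figure D3:**
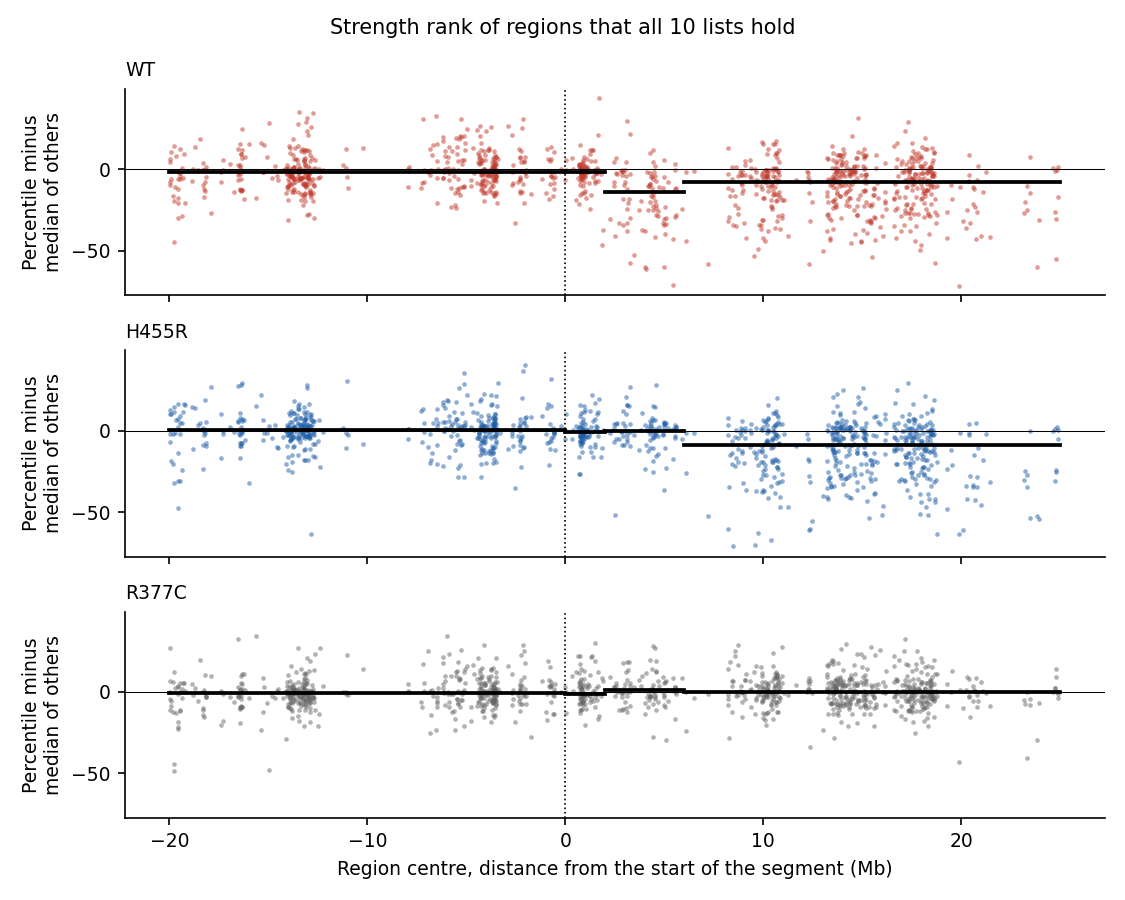
Percentile of each region that all 10 lists hold, minus the median percentile of the other lists (vertical axis, points), against the distance of the region from the start of the segment (horizontal axis, Mb), for WT, H455R and, as an example of the other 8 lists, R377C. Each dot is 1 region and black lines are medians before the segment and over its first 2 Mb, the next 4 Mb and the rest; they fall to -13.8 and -7.72 points in WT and to -8.82 points in H455R.

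The drop in rank was seen at gene ends, inside genes and between genes, and was smallest at gene ends. From 76 Mb, the 69 shared gene-end regions differed by -5.08 points in WT and -2.77 in H455R, against -1.82 (K365T) to 1.18 (R339Q) in the other 8. Of the 69, 55 were lower in WT, 48 in H455R and 47 in K365T. The 208 regions inside genes differed by -8.04 points in WT and -10.8 in H455R, and the 237 intergenic regions by -9.08 and -12.0. The other 8 lists lay between -1.85 and 1.65 inside genes and between -0.817 and 0.779 in intergenic regions. In the contrast the WT list also ranked gene ends lower, by -2.63 points over 681 regions, whereas H455R stood at -0.326 there. Regions of middle rank (percentiles 25 to 75 in the other 8 lists) had the largest differences, -13.4 points in WT and -13.8 in H455R over 301 regions. In the 129 regions ranked from 75 upwards the differences were -4.38 and -6.35, with 103 and 107 regions lower. In the 84 regions ranked under 25 they were -1.89 and -0.528, with 50 and 42 regions lower. For these rank groups the other 8 lists ran from -1.04 to 0.817, -1.37 to 0.747 and -2.43 to 2.06. WT and H455R thus lay inside the range of the other 8 only under 25. Ranks near either limit have less room to move, so these sizes are not on an equal scale.

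Most of the sites that WT and H455R lacked in the segment were in the weaker classes. Regions that the other 8 lists all hold, or the other 7 where the list was 1 of the 8, were split into 5 classes by their mean percentile in those lists. WT lacked 73 of the 821 such regions in the segment (8.89%) against 7 of 2787 in the contrast (0.251%). H455R lacked 95 (11.6%) against 19 (0.682%). In the weakest class WT lacked 19.2% (95% interval 12.9 to 27.1) and H455R 26.9% (19.5 to 35.4) of 130 segment regions. In the contrast these shares were 0.676% and 2.36%. Among the other 8 lists, Q418R lacked 19.0% of its weakest class in the segment and 7.20% in the contrast, and R339Q 18.8% and 15.0%. The rest lacked 0.763% (R377C) to 9.16% (K365T) of theirs in the segment. In the second strongest class WT lacked 2 of 166 regions and H455R 2 (1.20% each), against 0 of 555 in the contrast. In the strongest class 0 of 172 segment regions were missing from WT and 0 from H455R, which allows up to 2.12%. Over all classes together, the missing share of the segment minus that of the contrast ran from -0.504 to 1.91 points in the other 8 lists. R339Q, the shortest list, lacked 5.31% of the segment and 5.11% of the contrast. By position, WT lacked 0 of 86 regions from 70 to 72 Mb, 14 of 106 from 72 to 76 Mb and 59 of 629 from 76 Mb, while H455R lacked 0, 0 and 95 of them.

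**Figure D4:**
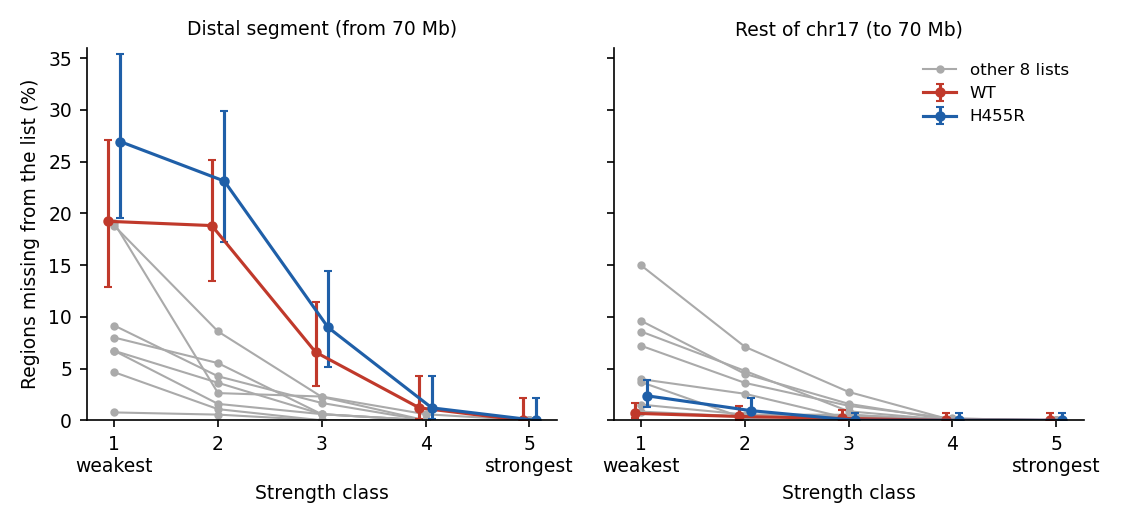
Share of regions missing from a list (vertical axis, percent) by strength class of the region (horizontal axis, 1 weakest to 5 strongest), in the segment (left) and in the rest of chromosome 17 (right). Bars on WT and H455R are exact 95% intervals and grey lines are the other 8 lists. In the segment WT and H455R reach 19.2% and 26.9% in the weakest class and 0% in the strongest. Of the grey lines there, Q418R and R339Q reach 19.0% and 18.8% in the weakest class.

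The regions lacked by both WT and H455R and held by all other 8 lists numbered 39 in the segment, 4.75% of the 821 that could show this. The count fell to 3 when the other 8 lists were limited to their stronger 50%, and with lists of equal length it was 56. In the contrast there were 2 of 2787 (0.0718%), or 10 with lists of equal length, and over the whole genome 98 of 82113 (0.119%), of which the segment held 39.8%. With the requirement lowered to at least 6 of the other 8 lists, the segment held 151 of 1135 (13.3%), the contrast 19 of 3678 (0.517%) and the genome 785 of 109460 (0.717%). All 39 lay beyond 76 Mb, from 77198534 to 94608522. Of them 21 were intergenic, 17 lay inside genes and 1 at a gene end. Among all 821 regions, by comparison, 349 were intergenic, 369 inside genes and 103 at gene ends. Their mean percentile in the 8 lists, here among all peaks of a list, ran from 5.99 to 68.2 with a median of 43.6, where the 692 regions kept by WT and H455R had a median of 72.1.

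The strongest of the 39 lay 8.13 kb from Lrpprc, which encodes an RNA-binding protein of mitochondria (chr17:84798912-84799266). In the 8 lists its percentile ran from 51.6 to 83.5 with a median of 72.3. Like the rest of the 39, it was called in every list other than WT and H455R, since this is how they were chosen. Next came a site in a gene desert, 932 kb from Crim1, the gene of a BMP-binding membrane protein (chr17:77267562-77267900, percentiles 52.4 to 80.7). A site 13.0 kb from Socs5, a suppressor of cytokine signalling, followed (chr17:87150645-87151420, percentiles 53.4 to 75.4). The site 21.3 kb from Cdc42ep3, which encodes an effector of the GTPase CDC42, had percentiles of 43.4 to 79.3 (chr17:79376409-79377353). These 4 were above the 43rd percentile in each of the 8 lists, but they were picked as the highest of the 39 by their mean percentile there. The mean percentiles of all 39 ran down to 5.99, with a median of 43.6.

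Further down the order the percentiles varied more between the 8 lists. A site inside Camkmt, the gene of calmodulin-lysine methyltransferase (chr17:85407385-85407934), ran from 16.2 to 81.4, and one 19.0 kb from Cript from 22.9 to 83.3. Others of the 25 strongest lay 48.8 kb from Msh6, 123 kb from the tryptophan-catabolism gene Haao, 114 kb from Mettl4 and 197 kb from Adcyap1, which encodes the neuropeptide PACAP. Near Foxn2, a forkhead transcription factor gene, there were 3 of them, at 64.6, 87.3 and 147 kb. Another lay 152 kb from Gm4832. Srbd1 had 1 site inside and 1 at 9.31 kb. Inside genes they lay in Slc8a1, which encodes a sodium-calcium exchanger (2 sites), Crim1, Map4k3, the gene of a stress-responsive kinase, and Lrpprc. The remaining ones lay 55.2 kb from Zfp36l2, which encodes a protein of mRNA decay, 59.7 kb from Pkdcc, 39.3 kb from the calmodulin gene Calm2 and 8.02 kb from the potassium channel gene Kcnk12. The gene-end site was at Ppp1r21 (chr17:88587401-88587903), weak in the 8 lists with a mean percentile of 21.6. Distances are to the nearest protein-coding gene and say nothing of which gene a site acts on.

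The sites lacked by WT alone began earlier than those lacked by both. There were 34 in the segment, of 726 regions held by all other 9 lists (4.68%), against 5 of 2768 in the contrast (0.181%) and 195 of 81346 in the genome (0.24%). Of the 34, 14 lay between 72 and 76 Mb and the earliest at 72500389 inside Alk, which encodes a receptor tyrosine kinase. The strongest was inside Spast, with percentiles of 64.6 to 86.5 in the other 9 lists, 64.6 of them in H455R. Next came sites inside Camkmt, at 27.0 (H455R) to 88.4, and 43.5 kb from Qpct, at 42.1 to 84.3. Memo1, whose product takes part in cell migration, held the fourth, at 55.8 to 79.2. Weaker ones lay inside Birc6, which encodes an inhibitor of apoptosis, and Ttc27. In Rasgrp3, the gene of an activator of Ras, the missing region covered the stretch printed above, before an internal start. That region stood between 30.2 and 69.8 in the other 9 lists. The region over the Abcg8 promoter stretch stood between 18.4, in H455R, and 76.4 in the others. Abcg8 and its neighbour Abcg5 encode partners in a sterol transporter.

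H455R alone lacked 56 of 748 segment regions (7.49%), against 17 of 2780 in the contrast (0.612%) and 669 of 81820 in the genome (0.818%). All 56 lay beyond 76 Mb. The strongest were 307 kb from Adcyap1 (chr17:93513884-93514830, percentiles 53.4 to 82.5), 134 kb from Foxn2 (chr17:88306110-88306728), 48.3 kb from Calm2 and 64.0 kb from Epcam. Of the 56, 2 were at gene ends, 30 inside genes and 24 intergenic. The other 8 lists each lacked 0 (R377C) to 13 (R339Q) segment regions alone, 0% to 1.84% of those that could show it, against 0.181% to 4.39% in the contrast and 0.311% to 4.31% in the genome. R339Q lacked 1.84% in the segment and 4.39% in the contrast. The strongest for each list lay inside Sos1, which encodes an activator of Ras, for R377H (chr17:80450512-80450985), inside Ltbp1 for Q418R (chr17:75161047-75161437), inside Six2 for S354F (chr17:85674935-85675238) and inside Dlgap1 for R342C (chr17:70450967-70451302). K365T lacked a site 63.9 kb from Atl2, R448Q one 2.54 kb from Lbh and R339Q one 37.4 kb from Mettl4.

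In the reverse direction, 7 segment regions were held by WT and H455R and by none of the other 8 lists, of 56 that those 8 lack (12.5%). The contrast had 89 of 606 (14.7%) and the genome 2640 of 18937 (13.9%), so this share was close to the background. Of the 7, 6 lay before 72 Mb. They were inside Smchd1, Togaram2 (2 sites), Dlgap1, Wdr43 and Myom1, a gene of the muscle sarcomere, and the seventh was intergenic, 20.3 kb from Hnrnpll. All were weak, and the strongest was the Smchd1 site, at the 33.3rd percentile of WT and the 32.3rd of H455R (chr17:71469965-71470201).

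Few gene ends differed. Of the 116 protein-coding genes of the segment, 96 carried a peak within 1 kb of an annotated end in each of the other 8 lists. All 96 did so in WT and in H455R as well. Over the genome, 1 gene of 14176 with accessible ends in the other 8 had none in WT and H455R (0.00705%). Neither did WT or H455R lack one at any of the 621 such genes of the contrast, and 1 peak at either end is enough, so this measure could show little. Single gene-end regions were missing at Ppp1r21 in both lists, at Abcg8 in WT alone, and at Cyp1b1 and the other end of Abcg8 in H455R alone. Counting all genes, 99 carried such a peak in WT and 101 in H455R, against 98 (K365T) to 103 in the other 8. Six3, a homeobox gene of the forebrain and eye that was picked out after its values were seen, had none in WT, H455R and K365T and 1 or more in each of the other 7 lists.

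Inside genes, by contrast, WT and H455R had fewer peaks. Among the 49 genes with a median of at least 5 peaks in the other 8 lists, WT was below all 8 in 24 and H455R in 28, and both were in 16. Over the 5241 such genes of the genome, the 49 included, these shares were 0.572%, 1.3% and 0.324%. The segment genes made up 24 of the 30, 28 of the 68 and 16 of the 17 genes behind these shares. Among the 178 genes of the contrast the counts were 0, 3 and 0. WT was above all 8 in 4 segment genes and H455R in 6 (8.16% and 12.2%), against 39% and 23.8% over the genome, where the 2 lists are the longest. The segment counts were the same when genes were kept by their mean over all 10 lists, a filter added after the data were seen. Camkmt, 368 kb long, had the largest difference, with 33 peaks in WT and 35 in H455R against 40 to 54 in the other 8 (median 47). Vit, which encodes an extracellular matrix protein, had 6 and 5 peaks against 8 to 18. The gene of the NuRD complex protein Mta3 had 21 in WT and 12 in H455R against 20 to 32, so only H455R lay outside the range. In Map4k3 there were 27 and 23 peaks against 26 to 39. In Thada there were 25 and 20 against 24 to 38. WT thus lay within the range of the other 8 in these last 3 genes.

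**Figure D5:**
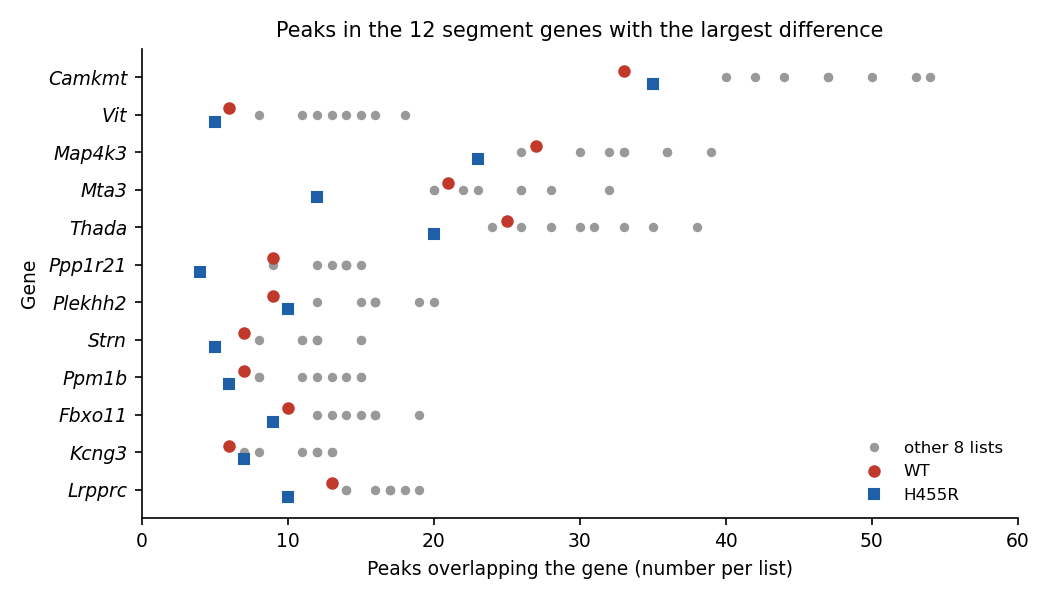
Number of peaks overlapping each gene (horizontal axis) in WT (red circles), H455R (blue squares) and the other 8 lists (grey dots), for the 12 segment genes with the largest difference between the median of the 8 and the mean of WT and H455R. In Camkmt WT has 33 and H455R 35 peaks against 40 to 54 in the other 8.

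Peak numbers were also summed over groups of segment genes with related roles. Msh6, beyond 76 Mb, had gene-end peaks in all 10 lists and held 5 peaks in WT and 3 in H455R against 3 to 4. Of 12 genes of kinases, GTPases and signalling, all 12 had gene-end peaks in every list, and together they held 98 peaks in WT and 102 in H455R against 114 to 147 in the other 8. Within this group Memo1, between 72 and 76 Mb, had 10 in WT and 13 in H455R against 8 to 14. Sos1 had 10 peaks in each of WT and H455R against 13 to 17, and Prkce, a protein kinase C gene, had 9 and 10 against 11 to 23. Prkd3, which encodes protein kinase D3, had 3 in each against 4 to 8. The 6 genes of RNA processing and decay held 24 and 19 peaks against 27 to 34. In this group Hnrnpll, which encodes a splicing regulator, had 1 in each against 2 to 5, while Zfp36l2 and the splicing factor gene Srsf7 had 1 in both.

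The other groups overlapped the range of the 8 lists in WT, in H455R or in both. The sums are raw counts, not scaled by list length, and each of these groups includes genes before 72 Mb. Overlap therefore does not show that a group's genes further on kept their peaks. The 9 chromatin and transcription genes held 63 peaks in WT and 49 in H455R against 56 to 82. Smchd1, before 72 Mb, had 13 in WT and 9 in H455R against 5 to 10, and Dpy30, a subunit gene of H3K4 methyltransferase complexes, had 3 and 4 against 3 to 5. Tgif1, which encodes a homeodomain repressor and lies before 72 Mb, had 4 and 5 against 3 to 5. Six3 had 2 peaks in WT and 1 in H455R against 4 to 6. The 9 cytoskeleton and mitosis genes held 51 and 54 against 49 to 73. Spast, which encodes the microtubule-severing protein spastin and lies between 72 and 76 Mb, had 2 in WT and 4 in H455R against 3 to 6. In the same interval Birc6 had 13 in WT, below the 15 to 23 of the other 8, and 24 in H455R, above them. Ltbp1, a gene of TGF-beta storage, also there, had 7 and 18 against 10 to 24. The kinetochore gene Ndc80, before 72 Mb, had 6 and 2 against 2 to 3, and Eml4, beyond 76 Mb, had 10 in each against 11 to 17.

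The 10 genes of adhesion, neuronal and membrane proteins held 122 peaks in WT and 120 in H455R against 114 to 145. Dlgap1, which encodes a postsynaptic scaffold protein and spans the start of the segment, had 64 in WT and 55 in H455R against 44 to 59. It thus gave a large part of these sums, although it lies before the stretch where WT and H455R were low. The sums therefore say little of the group's genes further on. Epcam had 3 and 4 against 1 to 4. The 6 genes of cilia, secretion and metabolism held 29 and 32 against 26 to 37. Among them Dync2li1, a gene of ciliary transport, had 5 in each against 5 to 9, Ttc7 had 17 and 20 against 12 to 19, and Pkdcc, the gene of a secreted kinase, had 2 in each against 2 to 3.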

How the data were processed

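Omni-ATAC-seq peaks of 20 samples (10 genotypes, 2 replicates each) were used. Per the submitters' processing notes, Trim Galore, Bowtie2, MACS2 and deepTools were used with mm10; how duplicates, the transposase shift and thresholds were handled, and with which versions, was not given in the sources used here. Each genotype has 1 list from both replicates together. The value of each peak was made by the authors before deposit and is taken, from its range, to be the ratio of signal to expected background that MACS2 reports; the lists have no header. Read depth is unknown. The lists were merged, ranked and counted with Python 3.11.15, pandas 2.3.3 and SciPy 1.17.1. A peak or region was placed by its midpoint, and no region spanned 70 Mb. The steps were checked on lists made with known answers.

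Genes, their ends and promoter windows came from RefSeq tables on GRCm38.p6, which has the chromosomes of mm10; the gene table gives no exons. All named lists and the segment were chosen with earlier results of these data known. Regions were named by their mean percentile (the 25 strongest lacked by WT and H455R, the strongest that each list alone lacked, and those held by WT and H455R alone), and genes by the difference in peak number (the first 5) or in the order of the gene lists; other genes named were chosen after their values were seen. Some items that these rules name are not reported here. With pooled lists no test between genotypes was planned. Alternatives were another contrast, equal list lengths, a stricter threshold, another segment start, another overlap and single-peak regions.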

Additional observations from a re-analysis of the deposited data

How the results depend on the processing

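No paired analysis was possible because each genotype has 1 list from both replicates, and no replicate could be left out. Set against the other 8 lists, the segment density of WT (0.636) was 0.700 with the stronger 50% of each list and 0.593 from 75 Mb, and that of H455R (0.685) was 0.597 from 75 Mb. By parts chosen after the data were seen, WT stood at 1.05 from 70 to 72 Mb, 0.536 from 72 to 76 Mb and 0.592 from 72 Mb on, and H455R at 1.06 from 70 to 72 Mb, 0.939 from 72 to 76 Mb and 0.589 from 76 Mb on. The direction thus turned only from 70 to 72 Mb. Missing in the segment minus missing in the contrast was 8.64 points in WT, 11.1 with 50% overlap and 11.8 with equal list lengths. The 39 regions that WT and H455R lack became 43 with 50% overlap, 56 with equal list lengths (10 in the contrast) and 3 when the other 8 lists were limited to their stronger 50%, which leaves fewer sites that they can hold. Counting 43 and 56, 17 values for WT, H455R and this count moved by less than their interval or by less than 1.5 times. A further 10 moved by more and 2 turned direction, the latter from 70 to 72 Mb. The rank shifts of the other 8 lists stayed above 0 in 24 of 24 alternatives. Without depth or replicate lists, the spread between replicates is unknown.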

Other observations

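Some sites that all 10 lists hold ranked well below the other 8 lists in WT and H455R. The 5 with the largest drop in both, chosen after their values were seen, were all intergenic and beyond 76 Mb. The strongest lay 593 kb from Slc8a1 (chr17:82331364-82332003), at the 28.3rd percentile of the shared regions in WT and the 25.5th in H455R against 66.3 to 93.8 in the other 8 lists. The site 39.8 kb from Msh6 (chr17:87934252-87935241) stood at 7.87 and 6.74 against 35.2 to 76.7. A site in the desert 1002 kb from Crim1 (chr17:77197490-77198065) stood at 6.56 and 12.3 against 49.0 to 77.0, directly before the first region that both lists lack.

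Of the 5 strongest sites of the segment, 3 lay before 72 Mb. They were inside Dlgap1 (chr17:70040745-70041358 and chr17:70403548-70404216) and inside Smchd1 (chr17:71444109-71444932), with median folds in the other 8 lists of 22.3, 22.7 and 23.0. Another was the region shared by the gene ends of Dhx57 and Morn2, with a median fold of 21.8, and the last lay 31.3 kb from Ypel5 (chr17:72881787-72882520).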
